A study of Mus musculus with 4 samples.

Results

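The genes of the proteasome were examined in RNA from the whole left hippocampus of wild-type mice. Members were the genes whose symbol in the array's probe table begins with Psm, a letter from a to g and a digit, read from probe sets with exactly 1 symbol. The inducible catalytic subunits Psmb8 and Psmb9 were left out. The pattern gave 100 probe sets of 47 genes, out of 18194 genes with a probe set of their own. Of these, 45 encode subunits, regulators or assembly factors of the proteasome, and 2, Psmc3ip and Psme3ip1, share only the start of the name and encode proteins that interact with a subunit. Psme2, the partner of Psme1, was not analysed here because its probe set carries several symbols.

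The study measured 4 hippocampi, numbered 11, 13, 15 and 17 in the labels, on 1 Affymetrix expression array each. All 4 are wild type and are described as biological replicates, so there is a single group and no treated or mutant counterpart. The animals had no strain, age or sex given in the sources used here. The deposited values are log2 intensities, so a difference of 1 is a doubling, and with 4 arrays the precision is limited.

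The proteasome is the protease that degrades proteins tagged with ubiquitin in the cytosol and nucleus. Its core is a barrel of stacked alpha and beta rings, in which 3 of the beta subunits carry the active sites. The regulatory particle caps the barrel, where ATPases unfold the substrate and non-ATPase subunits bind and remove ubiquitin. In neurons the complex is known for its part in turnover of synaptic proteins.

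Most proteasome genes gave a clear signal. A background limit was set at 7.10, the 95th percentile of the means of 41 genes typical of testis, liver, skin, muscle and other tissues. Of the 47 genes, 40 lay above it, among them 39 of the 45 proteasome genes, where 35.8% of all genes did. All 14 constitutive core genes (Psma1 to Psma7 and Psmb1 to Psmb7) were above the limit, with means between 8.96 for Psma1 and 10.80 for Psmb7. Of the 17 regulatory particle genes 16 were, the exception being Psmd7. Levels of different genes are not ranked, since probe sets differ in affinity.

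**Figure D1:**
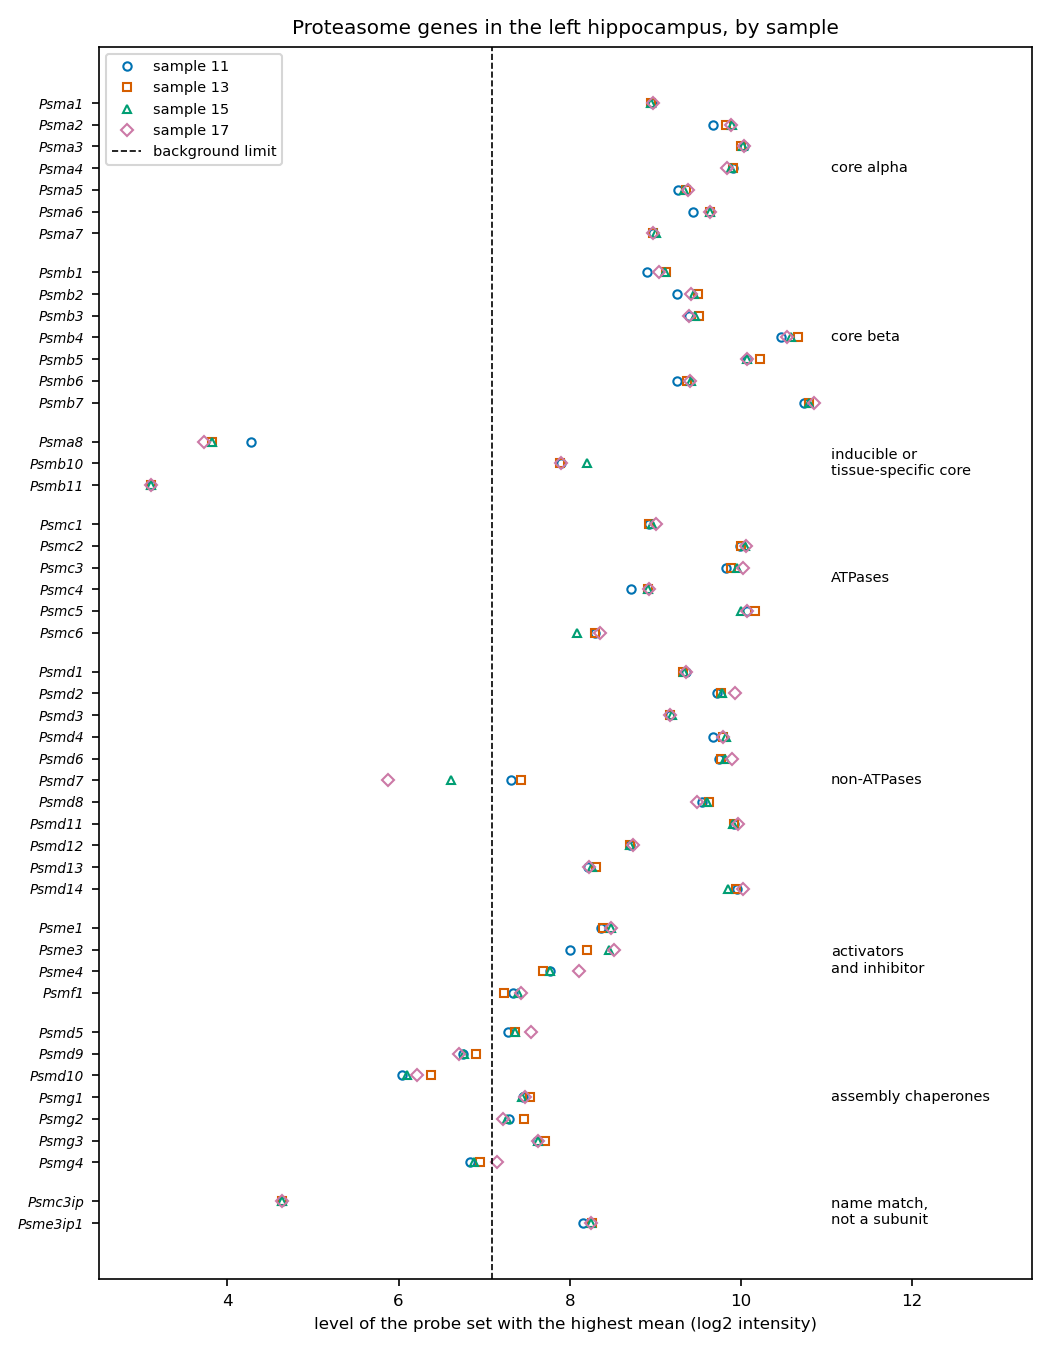
Level of the brightest probe set of each gene (horizontal axis, log2 intensity) in samples 11, 13, 15 and 17 (symbols), with genes grouped by their place in the complex and the background limit of 7.10 as a dashed line. The symbols of most genes lie almost on top of each other, while those of Psmd7 reach from 5.88 to 7.43.

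The 2 tissue-specific core genes were under the limit. Psma8, the alpha subunit of the testis proteasome, had a mean of 3.91 ± 0.24, and Psmb11, the beta subunit of the thymus proteasome, was listed at 3.11 in all 4 samples (SD over n = 4 here and below). The other genes under the limit were Psmd7, the assembly chaperones Psmd9, Psmd10 and Psmg4, and Psmc3ip at 4.64. Such a level is no proof of absence. The members nearest to the limit were Psmg4 below it at 6.95 ± 0.14 and Psmg2 above it at 7.31 ± 0.11.

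As a check of the tissue, 10 of 10 neuronal, 7 of 8 astrocyte and 7 of 9 myelin markers lay above the limit. The same held for 6 of 9 microglial, 4 of 8 endothelial and 1 of 8 choroid plexus markers, but for 0 of 6 ependymal and 0 of 7 blood and leukocyte markers. In whole tissue, fewer cells of a type and less RNA per cell cannot be told apart. The arrays did not match in RNA end bias: the 3' minus 5' difference of the control transcript Gapdh was 0.62, 0.62, 2.64 and 3.79 in samples 11, 13, 15 and 17. Genes above the limit deviated from their own means by -0.050, -0.00082, 0.020 and 0.032 in samples 11, 13, 15 and 17 on average. The median of all probe sets was 4.71, 4.70, 4.70 and 4.67 in these samples, highest in sample 11 and lowest in sample 17. The shift of the genes above the limit was thus not a shift of all probe sets.

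The catalytic subunits of the core are the first members to consider. Psmb5, the chymotrypsin-like subunit, had levels of 10.06, 10.22, 10.06 and 10.06 in samples 11, 13, 15 and 17. It stood apart in sample 13 alone. Psmb6, the caspase-like subunit, had levels of 9.25, 9.37, 9.42 and 9.40 in samples 11, 13, 15 and 17. Psmb7, the trypsin-like subunit, had 10.74, 10.80, 10.80 and 10.85 in the same samples. Both were lowest in sample 11, and all 3 catalytic genes kept to a range of at most 0.17.

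Proteasome genes are known targets of the transcription factors Nfe2l1 and Nfe2l2, which bind antioxidant response elements, so promoters were searched for the core letters TGACNNNGC of that element on both strands. RefSeq promoters (GRCm38.p6) were found for 39 of the 47 genes, with 42 start sites, and the 250 bases before each start were read. The motif occurred before 5 member start sites (11.9%), namely those of Psmb5, Psmb6, Psmc6, Psmd9 and Psmd12, against 10.2% of all 32851 start sites, so the share was near that of all promoters. The 3 member promoters with the match nearest to the start are shown, 5' to 3' on the strand of the gene and ending at the base before the start, with the match in capitals. They lie at chr14:54617996-54618245 on the minus strand (Psmb5), chr11:70525107-70525356 on the plus strand (Psmb6) and chr5:123227940-123228189 on the plus strand (Psmd9).
Psmb5: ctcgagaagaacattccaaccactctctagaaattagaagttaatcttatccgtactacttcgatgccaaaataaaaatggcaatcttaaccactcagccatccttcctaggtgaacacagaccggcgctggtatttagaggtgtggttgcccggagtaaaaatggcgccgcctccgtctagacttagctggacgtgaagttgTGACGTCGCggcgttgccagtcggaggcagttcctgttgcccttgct
Psmb6: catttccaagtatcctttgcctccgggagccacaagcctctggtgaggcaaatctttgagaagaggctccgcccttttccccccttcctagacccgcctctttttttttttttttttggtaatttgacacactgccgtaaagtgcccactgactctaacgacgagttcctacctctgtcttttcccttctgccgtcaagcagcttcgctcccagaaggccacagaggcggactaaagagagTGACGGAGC
Psmd9: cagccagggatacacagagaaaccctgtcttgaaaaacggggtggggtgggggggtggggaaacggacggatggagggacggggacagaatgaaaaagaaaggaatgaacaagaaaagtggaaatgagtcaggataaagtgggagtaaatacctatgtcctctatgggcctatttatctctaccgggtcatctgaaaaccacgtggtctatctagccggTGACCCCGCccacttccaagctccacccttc

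In these promoters the match begins 47 bases before the start in Psmb5, 9 in Psmb6 and 31 in Psmd9. A match is a description of the letters only. The CCAAT box, a common promoter element, was found before 15 of the 42 member start sites (35.7%), against 33.8% of all. The letters TTCNNNGAA of an interferon gamma activated site were found before 1 (2.38%), that of Psmg1, against 7.02% of all. Both were read in the same window and on both strands, and no motif of the 3 contains another.

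Among the other beta subunits, which shape the inner rings, sample 13 was often highest. Psmb1 had levels of 8.90, 9.13, 9.11 and 9.04 in samples 11, 13, 15 and 17. Psmb2 had 9.26, 9.50, 9.45 and 9.41. Sample 11 was lowest and sample 13 highest for both. Psmb3 had 9.39, 9.51, 9.46 and 9.39, and Psmb4 had 10.47, 10.66, 10.59 and 10.54, by their brightest probe sets. The second probe set of Psmb4, also above the limit, had 9.06, 9.001, 9.06 and 9.06 and was lowest in sample 13. That of Psmb3 was not highest in sample 13 either. By the brightest probe set, 5 of the 7 beta genes were strictly highest in sample 13, against 18.3% of all genes above the limit. The median difference of sample 13 minus sample 11 was 0.16 over the 7 beta genes and 0.037 over all genes above the limit. When the probe sets of a gene were summarised by their median, Psmb1 fell under the limit and 3 of the other 6 were highest in sample 13.

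The alpha subunits, which form the outer rings and the gate, had a smaller median SD, 0.032 over 7 genes against 0.080 over the 7 beta genes, a difference that was not tested. Psma1 had levels of 8.96, 8.95, 8.95 and 8.97 in samples 11, 13, 15 and 17, an SD of 0.0096 that was the smallest of any member above the limit. Psma2 had 9.68, 9.82, 9.90 and 9.89, with the largest SD of the alpha genes at 0.10. Psma6 had 9.44, 9.64, 9.64 and 9.64. Psma2 and Psma6 were thus low in sample 11, and the remaining alpha genes stayed within a range of 0.11.

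In the regulatory particle, the ATPases form the ring that threads the substrate into the core. Psmc4 had levels of 8.72, 8.92, 8.91 and 8.92 in samples 11, 13, 15 and 17, and was low in sample 11. Psmc6 had 8.29, 8.29, 8.08 and 8.35 by its brightest probe set, and was low in sample 15. Its second probe set gave 7.38, 7.35, 7.49 and 7.67 and was lowest in sample 13 instead. The second probe set of Psmc4 gave 8.01, 8.06, 8.27 and 8.38, again lowest in sample 11. Psmc2 varied least of the ATPases, at 9.99, 9.99, 10.05 and 10.05. Of the 6 ATPase genes 5 were strictly highest in sample 17, where 38.7% of all genes above the limit were.

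The non-ATPase subunits bind ubiquitin, remove it and hold the particle together. Psmd2, a scaffold subunit, had levels of 9.72, 9.77, 9.77 and 9.93 in samples 11, 13, 15 and 17, and was high in sample 17. Psmd3, a subunit of the lid, varied least, at 9.18, 9.18, 9.20 and 9.18. Psmd14, the enzyme that cuts off ubiquitin, had 9.96, 9.94, 9.85 and 10.02. Psmd1, Psmd11, Psmd12 and Psmd13 had SDs between 0.017 and 0.044. Of the 10 non-ATPase genes above the limit, 9 stayed within 0.1 of their own mean in every sample, as did 8 of the 14 core genes and 46.1% of all genes above the limit.

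Core and regulatory particle were then compared within each array, as the mean deviation of their members from the own mean of each gene. The 14 core genes deviated by -0.069, 0.038, 0.022 and 0.0084 in samples 11, 13, 15 and 17. The 16 regulatory genes above the limit deviated by -0.035, 0.0062, -0.0094 and 0.039 in the same samples. The core minus regulatory difference was thus -0.034, 0.032, 0.032 and -0.030, a span of 0.066. In sample 11 the core stood below the regulatory particle, in samples 13 and 15 above it, and in sample 17 below it again. With a single group of 4 arrays there was no contrast to test.

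The signs of this small difference changed with the genes and probe sets used. Psmd7, left out because its mean is under the limit, enters when the limit is set at the 90th percentile, and the difference then became -0.065, -0.0040, 0.043 and 0.027 in samples 11, 13, 15 and 17. The sign was turned in samples 13 and 17 and the span was 0.108. The same signs turned, with Psmd7 still left out, when the median of the probe sets was used, at -0.0097 in sample 13 and 0.041 in sample 17. Psmd4 then has the values of its second probe set, which is lower in samples 15 and 17. Its SD became 0.634 in place of 0.0656, and its part in the turned signs was not tested.

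**Figure D2:**
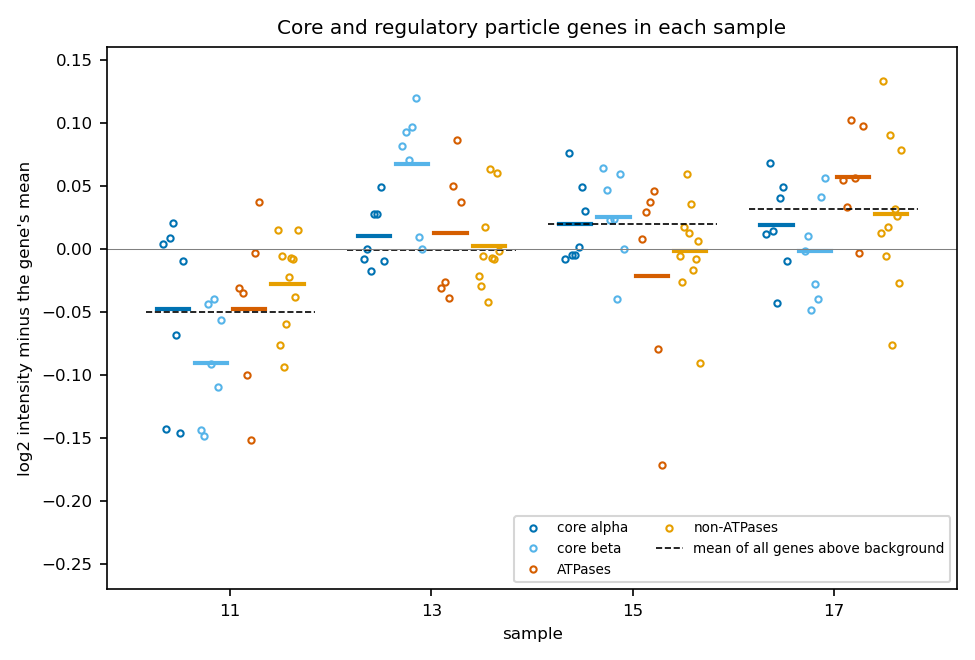
Log2 intensity minus the gene's own mean (vertical axis) for core alpha, core beta, ATPase and non-ATPase genes above the limit in each sample. Circles are genes, thick bars the mean of a class and dashed lines the mean of all genes above the limit; the beta genes average 0.067 in sample 13 and -0.091 in sample 11.

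The beta genes deviated by -0.091, 0.067, 0.025 and -0.0016 in samples 11, 13, 15 and 17. Other gene groups were also high in sample 13. The inducible chaperones deviated by 0.18 there, with 10 of 11 genes above the limit highest in that sample. The myelin markers deviated by 0.41, with 7 of 7, and Ttr, the choroid plexus marker above the limit, by 2.19. Ttr had levels of 7.36, 9.84, 6.86 and 6.54 in samples 11, 13, 15 and 17. The last 2 are under the limit, so the size of its deviation rests partly on background values. The means of the 8 choroid plexus genes lay between 2.91 for Otx2 and 7.65 for Ttr. Neuronal markers deviated by only 0.016 in sample 13. The part of these cell types in the values of the beta genes was not tested.

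Over all 40 members above the limit, 20 were strictly lowest in sample 11, where 48.2% of all genes were. Sample 17 was strictly highest for 19 of the 40 and for 38.7% of all genes, and sample 13 for 13 of the 40 and for 18.3%. Sample 15 was so for 6 and for 27.8%, and sample 11 for 1 and for 9.32%. The members' mean deviations of -0.057, 0.011, 0.012 and 0.034 in samples 11, 13, 15 and 17 lay close to the shift of all genes above the limit. Equal values in at least 2 samples occurred in 15 of the 40, and in 28.3% of all genes.

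**Figure D3:**
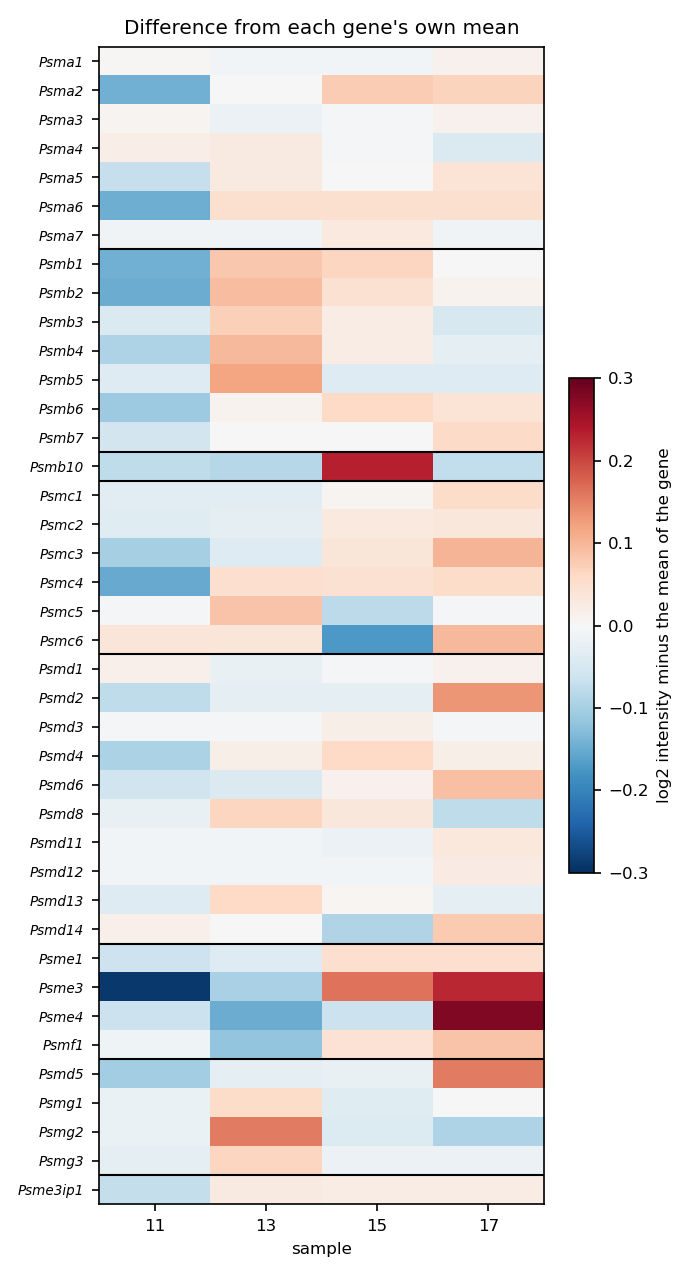
Log2 intensity minus the gene's own mean (colour) for the 40 genes above the limit (rows, in blocks by class) in samples 11, 13, 15 and 17 (columns). Psmb10 in sample 15 and Psme4 in sample 17 are the darkest red fields, and Psme3 in sample 11 is the darkest blue field.

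The regulators that cap or block the core had the largest median SD of the classes with more than 1 member above the limit, at 0.139. Psme3, the activator of the nuclear proteasome, had levels of 8.004, 8.20, 8.46 and 8.52 in samples 11, 13, 15 and 17. Its SD of 0.24 was the largest among members above the limit, and the span was 1.43-fold. Its second probe set, under the limit, had 6.56, 7.02, 6.90 and 6.90, values whose order is not read.

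Psme4, the activator PA200 of nuclei and testis, had levels of 7.77, 7.68, 7.77 and 8.11 in samples 11, 13, 15 and 17. Its second probe set gave 7.67, 7.47, 7.58 and 7.81, again lowest in sample 13 and highest in sample 17. A further probe set was under the limit throughout, at 6.59, 6.14, 5.75 and 5.88. Psme1, an interferon-inducible activator subunit, had 8.37, 8.39, 8.48 and 8.48, and Psmf1, the inhibitor PI31, had 7.34, 7.23, 7.39 and 7.44. All 4 genes of this class were strictly highest in sample 17, where 38.7% of all genes above the limit were, although Psme1 had the same rounded level in sample 15.

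Psmb10, the inducible counterpart of Psmb7, was high in sample 15 alone. It had levels of 7.90, 7.89, 8.21 and 7.90 in samples 11, 13, 15 and 17. The excess in sample 15 was 1.24-fold over the mean of the other samples. The left-out Psmb8 and Psmb9 were under the limit in every sample, Psmb8 at 5.33, 5.22, 5.57 and 5.38 and Psmb9 at 5.29, 5.29, 5.59 and 5.29, so their order among samples is not read. The class I light chain B2m had 9.87, 9.98, 10.24 and 9.98 and was likewise highest in sample 15. B2m was the only one of 13 measured interferon and immune inducible genes above the limit. The microglial markers above the limit deviated by -0.21, 0.050, 0.12 and 0.037 in samples 11, 13, 15 and 17, and 3 of 6 were highest in sample 15. The part of microglia in this result was not tested.

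The assembly chaperones build the core and the base of the regulatory particle without staying in the finished complex. Psmd10, under the limit, had levels of 6.04, 6.38, 6.10 and 6.21 in samples 11, 13, 15 and 17. Psmg4, likewise under it, had 6.83, 6.95, 6.88 and 7.15. Among those above the limit, Psmg1 varied least, at 7.46, 7.54, 7.44 and 7.48. Psmd5 had 7.28, 7.36, 7.37 and 7.54, and Psmg2 had 7.29, 7.47, 7.27 and 7.22. Psmg3 had 7.62, 7.71, 7.63 and 7.63, and Psmd9, under the limit, had 6.75, 6.90, 6.76 and 6.70. Of the 4 members of this class above the limit, Psmg1, Psmg2 and Psmg3 were highest in sample 13 and Psmd5 in sample 17. Of all genes above the limit, 18.3% were strictly highest in sample 13 and 38.7% in sample 17.

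Some probe sets of the regulatory particle were low in the arrays with the larger end bias. Psmd7, a lid subunit next to Psmd14, had levels of 7.31, 7.43, 6.62 and 5.88 in samples 11, 13, 15 and 17. Its values in samples 15 and 17 were under the limit, so no fold is given. Its next probe set, also under the limit, stayed between 6.02 and 6.04. Psmd4, the ubiquitin receptor, had 7.91, 8.001, 7.33 and 6.63 by its second probe set, the last of these under the limit. Its brightest probe set had 9.68, 9.79, 9.83 and 9.79 and was lowest in sample 11. The samples with low values were 15 and 17, which also had the larger Gapdh 3' minus 5' differences of 2.64 and 3.79. Whether these probe sets read the 5' part of their transcripts was not tested.

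**Figure D4:**
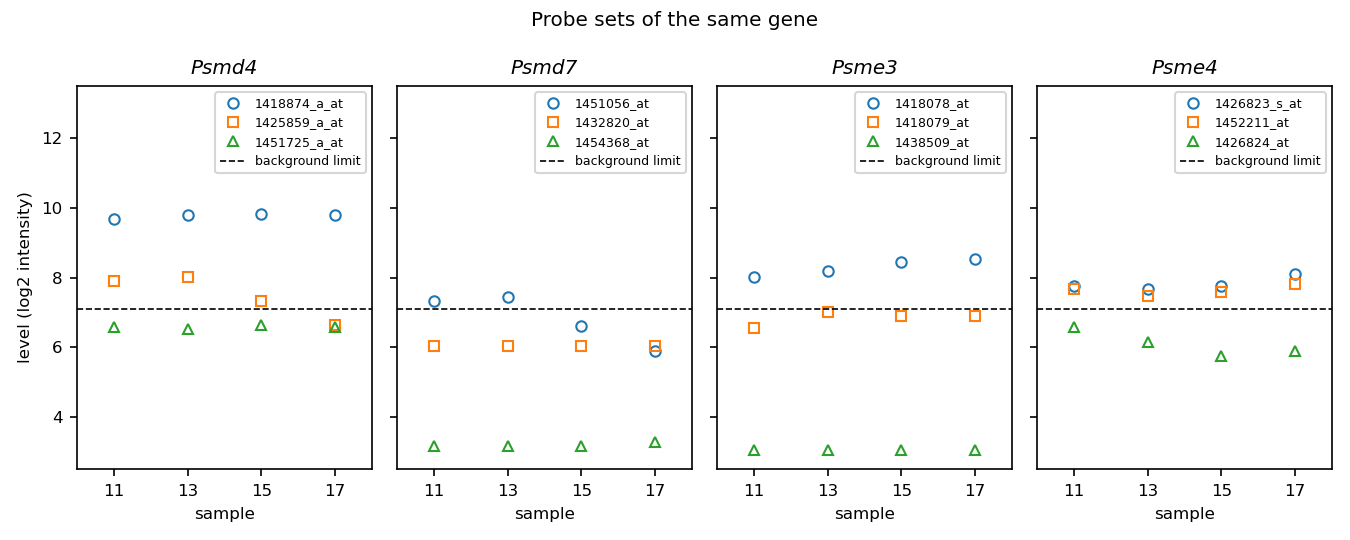
Levels (log2 intensity) of the 3 brightest probe sets of Psmd4, Psmd7, Psme3 and Psme4 in samples 11, 13, 15 and 17, with the background limit as a dashed line. One probe set each of Psmd4 and Psmd7 is lower in samples 15 and 17, while the brightest probe set of Psmd4 stays between 9.68 and 9.83.

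A test of spread asked whether any probe set had a larger variance between samples than probe sets of like level. In the limma fit 0 of 55 member probe sets above the limit were called at an adjusted p of 0.05, and 0% of all 9933 were. Without adjustment 1 member probe set, the second of Psmd4, was under 0.05, and 283 of all probe sets were. Its adjusted p in the limma fit was 0.904, as was that of the brightest probe set of Psme3. A count of 0 here does not show that the samples were alike.

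A second test asked whether different probe sets of a gene show the same differences between samples. It covered 13 member genes with at least 2 probe sets above the limit. None of the 13 passed after adjustment with limma's squeezed variances, against 2.16% of 1805 genes. Unadjusted, 2 of the 13 had a p under 0.05 in this test, and 398 of the 1805 genes did. Psme4 came nearest (adjusted p = 0.0945 by this limma-based fit), with a mean over its 2 probe sets that was highest in sample 17. Psma6 had an adjusted p of 0.197 in the same limma-based fit and was lowest in sample 11 by both probe sets. For Psmb3 the probe sets disagreed: the second had 9.20, 9.23, 9.44 and 9.44 where the first was highest in sample 13. Those of Psmb4 disagreed too, the second being lowest in sample 13 and the first highest there.

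The median SD of the proteasome genes was 0.0665, against 0.0811 over all 6510 genes above the limit, and 26 of the 40 members had an SD under that value, where 50% of all genes do. Over the 2407 genes between the lower and upper quartile of the members' levels (8.28 and 9.84) the median SD was 0.0779. The direction turned without samples 15 and 17, the arrays with the larger Gapdh differences, where the members had a median SD of 0.0605 and all genes 0.0517. Without sample 11 the members had 0.0442 and all genes 0.0649. No test was made of this difference.

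**Figure D5:**
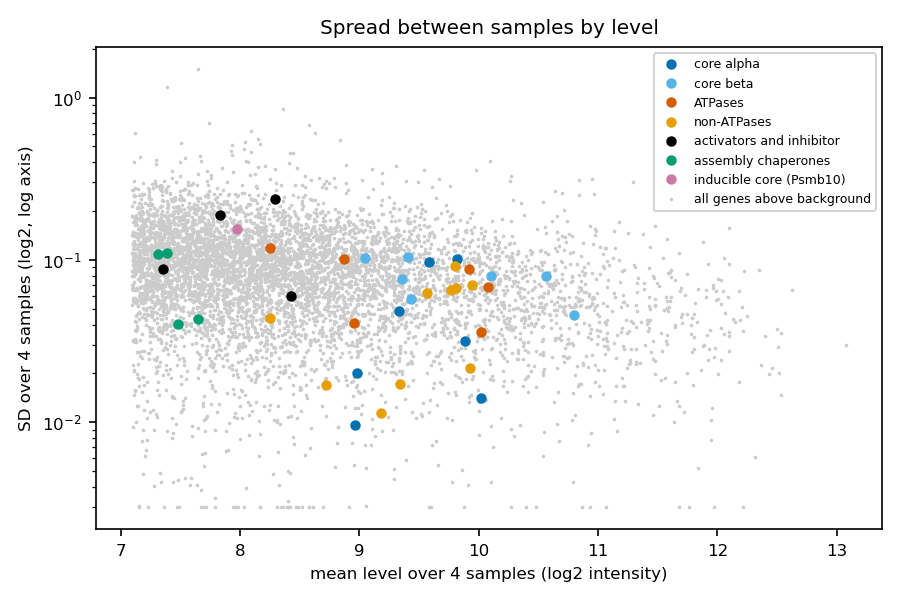
SD over the 4 samples (vertical, log axis; SDs under 0.003 are drawn at 0.003) against the mean level (horizontal, log2 intensity) for proteasome genes by class and all 6510 genes above the limit (grey). Members lie within the cloud of all genes, with Psme3 the highest at 0.24 and Psma1 the lowest at 0.0096.

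Genes that work with the proteasome were read in the same way. Of 20 measured partners, such as shuttle receptors, deubiquitinases and assembly factors, 18 lay above the limit, and 8 of 9 genes of the ubiquitin pathway and the Vcp segregase did. Their median SDs were 0.0768 and 0.0695, where the proteasome genes had 0.0665 and all genes above the limit 0.0811. Genes between the quartiles of the members' levels had 0.0779. Among those above the limit, the ubiquitin ligase Ube3a varied most, at 8.78, 8.67, 8.42 and 8.88 in samples 11, 13, 15 and 17, with sample 15 low. Faf1, a Vcp cofactor, had 7.69, 7.73, 7.88 and 7.99. Fbxo7, which binds the proteasome inhibitor PI31, had 7.25, 7.45, 7.52 and 7.39, and Sem1, the smallest subunit of the lid, had 9.38, 9.63, 9.60 and 9.59. These last 2 genes were lowest in sample 11. The shuttle Ubqln1 had an SD of 0.018 and the thioredoxin-like partner Txnl1 one of 0.025.

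The transcription factors that drive proteasome genes differed in detection. Nfe2l1 was above the limit, at 9.47, 9.50, 9.54 and 9.29 in samples 11, 13, 15 and 17, and lowest in sample 17. Nfe2l2 was under it at 5.52, 6.04, 6.05 and 6.11. The assembly factor Pomp had 9.85, 9.96, 10.04 and 10.00 and was lowest in sample 11. In 2 other large complexes, the COP9 signalosome, a relative of the lid, had 9 of 10 genes above the limit and a median SD of 0.088, and the TRiC chaperonin had 8 of 8 and 0.049.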

How the data were processed

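RNA was isolated with a column kit for fatty tissue and biotin-labelled after amplification, per the labels' protocols. The authors deposited log2 intensities of 45101 probe sets, computed with RMA per the submitters' processing notes (version not given in the sources used here). RMA scales arrays together, so a change shared by most genes cannot be seen. Of the probe sets, 34958 had 1 symbol and 932 several; symbols were updated through RefSeq (GRCm38.p6). The brightest probe set stood for a gene. Members and lists were chosen with earlier results of these data known.

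The background limit used 41 measured of 44 listed genes. Spread was tested with limma as residual over prior variance, using an intercept-only lmFit and a trended, robust eBayes. Agreement was tested as the ratio of the between-sample mean square to that of probe set by sample, squeezed with squeezeVar. Both covered the whole table with Benjamini-Hochberg adjustment and were run on simulated data. There all probe sets without a planted difference had the same SD, unlike in the data. The simulation thus does not show what the tests could call here. The p-values refer only to these 4 arrays. Those of the spread test set a variance against the fitted prior, and those of the agreement test set samples against disagreement between probe sets.

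Values in every sample were given by rule for catalytic and inducible subunits and the 2 most and 1 least variable genes of each class. The rule also took the 4 most and 2 least variable partners above the limit, the last 2 given by SD only. Genes whose probe sets differ were part of the rule too, but not all were given, Psmd13 being 1 left out. The values of other members, and of Nfe2l1, Nfe2l2, Pomp, B2m, Ttr and Otx2, were chosen after they were seen. Tests ran in limma 3.58.1 (R 4.3.3) and summaries in Python 3.11.15.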

Additional observations from a re-analysis of the deposited data

Results flagged for a closer look

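In 10 of 50 results, 1 sample lay far from the other 3: its gap to the nearest of them, as a share of the whole range, was past Dixon's critical value. Chance gives about 5%, and 15.0% of all genes above the limit met this criterion, against 9 of 40 members (22.5%). Equal values make such gaps easy to reach: Psma6 (9.44 in sample 11, the others equal), Psma7 (9.01 in sample 15), Psmb5 (10.22 in sample 13), Psmd3 (9.20 in sample 15) and Psmd12 (8.74 in sample 17) each had the same value in the 3 remaining samples. Psmb10 stood at 8.21 in sample 15, against 7.89 to 7.90 elsewhere. Psmc4 stood at 8.72 in sample 11, against 8.91 to 8.92. Psmg3 stood at 7.71 in sample 13, against 7.62 to 7.63, and Psme3ip1 at 8.16 in sample 11, against 8.25 in the other samples. The mean deviation of the alpha genes was -0.048 in sample 11. The differences from the mean of the other samples ran from 1.02-fold for Psmd3 to 1.24-fold for Psmb10, and their cause was not tested.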

How the results depend on the processing

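The count of members above the limit was between 28 (median over probe sets) and 43 (90th percentile limit), against 40. The core minus regulatory span of 0.066 became 0.108 with the 90th percentile limit. It lay between 0.0624 and 0.066 when sample 11, 13 or 15 was left out. Without sample 17 it was 0.108, and there the limit was 7.04 and Psmd7 entered. The sign of this difference was kept in every sample in 11 of 13 alternatives. With arrays centred on their medians it could not turn, since each array shifts as a whole. The 99th percentile limit removes no core or regulatory gene, so the sign could not turn there either. The sign turned in samples 13 and 17 with the 90th percentile limit, which adds Psmd7. It also turned there with the median over probe sets, which leaves Psmd7 out (-0.0097 and 0.041). With that median Psmd4 has the values of its second probe set, and its SD became 0.634 in place of 0.0656. The median SD of the members became 0.0574 with a second quantile normalization and 0.0737 with arrays centred on their medians, and lay between 0.0442 and 0.0597 when 1 sample was left out. It was under that of all genes except without samples 15 and 17, where it was 0.0605 against 0.0517. With the median over probe sets, 9 of 28 members were highest in sample 17, against 19 of 40. There 3 of 6 beta genes were highest in sample 13, against 5 of 7. Fewer genes are then above the limit, and genes with several probe sets have other values. Among all genes, the number whose probe sets agreed was 39. It was 89 with centred arrays, 18 with the 90th percentile limit, 12 without samples 15 and 17, and 3 to 8 when 1 sample was left out, where fewer samples enter the test. Under every alternative run for the tests, 0 members passed either one. Leaving out samples 15 and 17 together was chosen after seeing the data. No paired analysis was possible because there is only 1 group. Except where the alternative itself adds genes or removes samples, the cause of these shifts was not tested. Probe sets under the limit carry values that cannot be told from background.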
